A study of Mus musculus with 6 samples.

Results

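The genes described here are 35 genes of brain blood vessel endothelium, followed in 6 RNA sequencing libraries of infarcted mouse cortex. They were chosen by name as genes of the vessel barrier, of transport across it and of endothelial activation, and all 35 were found among the 56748 genes of the deposited count table. After the filter on low counts 32 members were tested, among 17584 tested genes. Sele, Selp and Aplnr did not pass it.

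The libraries came from male wild-type C57 mice with a photothrombotic (light-induced clot) stroke of the left hemisphere, made by laser light of 532 nm (250 mW, 1.5 mm wide, 5 minutes) after an intravenous agent at 100 mg/kg. All 6 libraries share the stroke, and no unlesioned tissue was analysed here. The mice were perfused with buffered saline before the brain was frozen, and the tissue is that of day 3. The treatment was 100 µL of saline or of PLEA nanoparticles into a tail vein at 2 hours, with 3 libraries for each. The sources used here give neither the age of the mice nor what PLEA stands for. One label names the tissue only as brain, and the design text names infarcted cortex. Nothing in the labels says whether replicates were separate animals, so a p-value here speaks only of the spread among these samples, which could be technical.

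Brain endothelial cells line the vessels as a sealed sheet. Tight junction proteins close the gaps between the cells, few vesicles cross them, and dedicated carriers bring in glucose, amino acids and lipids while efflux pumps return many drugs to the blood. After a stroke this barrier becomes leaky, and activated vessels can show selectins and immunoglobulin-type adhesion molecules that slow and hold leukocytes. In bulk tissue, fewer endothelial cells and less RNA per endothelial cell cannot be told apart.

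Total counts ranged from 16810448 to 17516434 per library. All 10 of the pan-endothelial markers checked were found in every library, and they summed to 167 to 332 CPM in saline libraries and 138 to 201 CPM in PLEA libraries. CPM is a gene's count scaled to a fixed library total that is adjusted by the TMM factor. Cortical neuron markers summed to 4590 to 5730 CPM over the 6 libraries, and striatal neuron markers to 134 to 1570 CPM. Saline replicate 1 stood apart: it was the highest library for 24 of the 32 tested members, against 21.3% of all tested genes. PLEA replicate 2 was the lowest for 17 of 32, against 19.1% of all tested genes. Saline replicate 1 was also highest for the summed markers of microglia (742 CPM, against 137 to 393 CPM in the other 5 libraries), monocytes and macrophages (181 against 27.2 to 67.5 CPM), astrocytes (6890 against 3330 to 4440 CPM) and mural cells, the pericytes and smooth muscle of the vessel wall (371 against 193 to 258 CPM). The 10 fibroblast and meninges markers summed to 179 to 242 CPM in saline and 119 to 133 CPM in PLEA. PLEA replicate 3 held the choroid plexus gene Ttr at 281 CPM, against at most 5.55 CPM elsewhere. The part of these differences in the results below was not tested.

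Promoter sequences of 4 members are shown, taken from near the ends of the list among members with a promoter sequence at hand. Emcn and Cav1 had all 3 PLEA libraries below all 3 saline libraries, and Mfsd2a and Ly6c1 had the highest fold changes. Cdh5, the lowest member, and Sox18 and Sox17, whose groups were also apart, had no promoter in the sequences used. Each run is the 250 bases before the most upstream RefSeq start, on the gene's strand, from RefSeq on GRCm38.p6. Capitals mark matches on either strand to AGGAAG, letters bound by ETS factors such as the member ERG, or to AACAAT, letters bound by SOX factors such as the members SOX17 and SOX18.
Emcn (chr3:137340828-137341077, plus strand): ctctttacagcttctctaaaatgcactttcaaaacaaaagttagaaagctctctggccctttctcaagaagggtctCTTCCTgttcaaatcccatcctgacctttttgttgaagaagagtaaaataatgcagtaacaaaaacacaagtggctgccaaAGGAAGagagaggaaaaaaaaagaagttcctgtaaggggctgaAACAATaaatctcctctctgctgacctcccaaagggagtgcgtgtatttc
Cav1 (chr6:17306085-17306334, plus strand): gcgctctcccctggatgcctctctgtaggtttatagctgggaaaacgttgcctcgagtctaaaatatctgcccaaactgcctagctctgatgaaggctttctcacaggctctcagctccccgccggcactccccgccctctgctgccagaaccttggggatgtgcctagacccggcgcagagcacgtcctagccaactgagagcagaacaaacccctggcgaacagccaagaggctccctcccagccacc
Mfsd2a (chr4:122961189-122961438, minus strand): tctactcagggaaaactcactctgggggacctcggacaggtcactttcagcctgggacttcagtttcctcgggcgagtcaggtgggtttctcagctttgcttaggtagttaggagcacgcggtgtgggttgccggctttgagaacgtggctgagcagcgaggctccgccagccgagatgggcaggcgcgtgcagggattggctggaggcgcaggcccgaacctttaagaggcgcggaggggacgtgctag
Ly6c1 (chr15:75048838-75049087, minus strand): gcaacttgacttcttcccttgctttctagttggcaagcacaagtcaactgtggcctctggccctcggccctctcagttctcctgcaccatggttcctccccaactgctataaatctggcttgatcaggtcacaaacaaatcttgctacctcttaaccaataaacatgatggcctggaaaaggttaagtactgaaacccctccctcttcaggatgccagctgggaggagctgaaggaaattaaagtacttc

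The Emcn window held 2 matches to the ETS letters and 1 to the SOX letters, with no overlap between them, and the other 3 windows held none of either. A promoter was found for 25 of the 35 members. Of these 25 windows, 13 (52.0%) held the ETS letters, against 29.2% of the 27025 windows of all genes, and 3 (12.0%) held the SOX letters, against 9.62%. AGATAA, letters bound by GATA factors, was in 0 of 25 and in 10.2% of all windows. These matches describe letters and not binding, and no match says only that the letters are not in this window.

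No member passed the test between PLEA and saline. edgeR's quasi-likelihood test with Benjamini-Hochberg adjustment over all tested genes called 0 of 32 members higher and 0 lower, against 0% of all genes in either direction, and limma voom also called 0. DESeq2 called 0 members, against 0.0171% of all genes called higher and 0.205% called lower by that tool. At an unadjusted p under 0.05 edgeR had 4 members lower, Cdh5, Emcn, Sox18 and Cav1, and 0 higher. The same rule took 3.58% of all tested genes on the lower side and 2.28% on the higher side. DESeq2 had 5 members lower at this level, the same 4 and Tek, and 0 higher, where it had 3.84% of all genes lower and 1.86% higher. The 3 PLEA libraries lay below the 3 saline libraries for 5 of 32 members, those 4 and Sox17, against 5.54% of all tested genes, and above them for 0 of 32, against 5.16%. Fitted log2 fold changes (PLEA over saline) ran from -0.86 to 0.50 with a median of -0.23, where the median of all tested genes was -0.01. They were negative for 24 of 32 members (75.0%) and for 51.0% of all tested genes. Without saline replicate 1 the median was -0.02 and without PLEA replicate 2 it was -0.09. Marker lists of other cells had medians of -1.28 (fibroblasts and meninges), -0.73 (monocytes and macrophages), -0.70 (microglia) and -0.51 (astrocytes). The medians of mural, neutrophil and platelet, and oligodendrocyte lineage markers were -0.28, -0.30 and -0.21. Cortical neuron, striatal neuron, choroid plexus and ependyma, and red blood cell markers had 0.04, 0.51, 0.70 and 0.52. The relation of these values to the members was not tested.

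**Figure D1:**
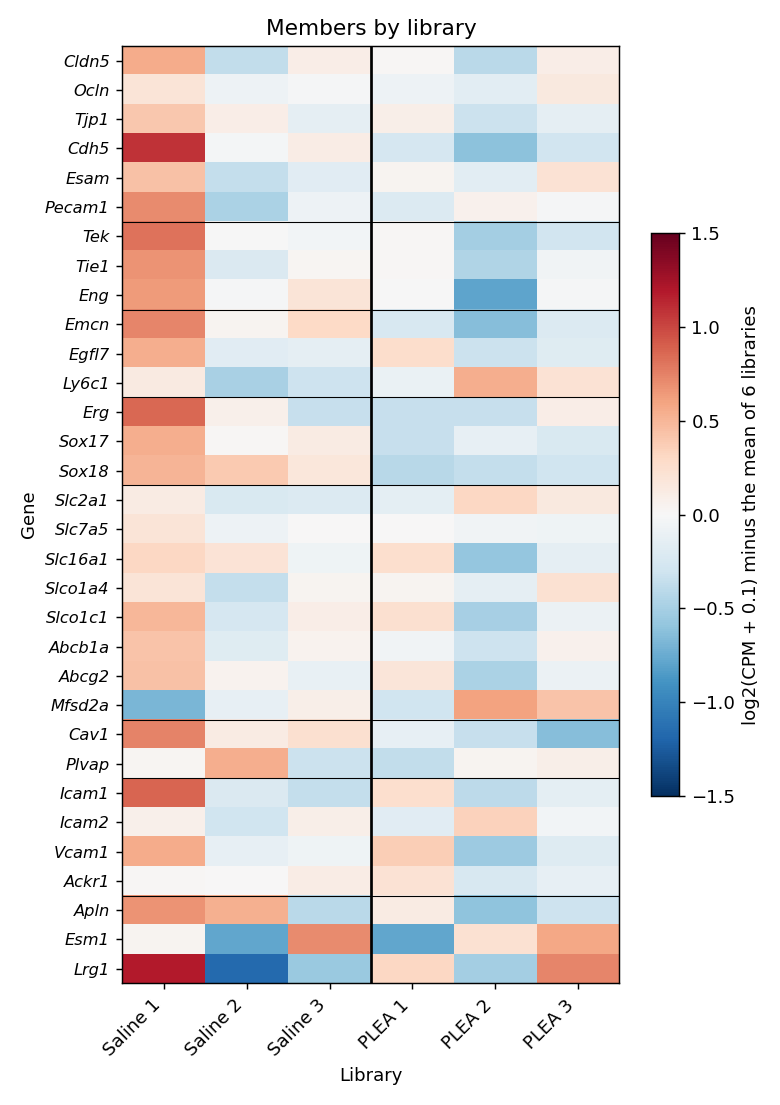
Each row is a tested member and each column a library, coloured by log2(CPM + 0.1) minus the mean of the 6 libraries, with a line between saline and PLEA and thin lines between gene groups. Saline replicate 1 is red in most rows (highest for 24 of 32), and PLEA replicate 2 is blue in most (lowest for 17 of 32), while Mfsd2a and Ly6c1 are highest in PLEA replicate 2.

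Of the 6 junction genes, 5 had negative fold changes, with a median of -0.21 (log2), which was 0.04 without saline replicate 1. Cdh5, which encodes VE-cadherin, the adhesion protein of endothelial adherens junctions, stood lowest. Its saline libraries read 33.6, 15.5 and 17.1 CPM and its PLEA libraries 13.3, 10.3 and 13.0 CPM, in the order of replicates 1 to 3, as for all genes that follow. The groups did not overlap, and saline replicate 1 stood well above the other saline libraries. Its log2 fold change was -0.86 (SE 0.30, edgeR adjusted p = 0.818), or -0.41 without saline replicate 1. Group means were 22.1 ± 10.0 CPM in saline and 12.2 ± 1.69 CPM in PLEA (SD, n = 3 each). In the deposited table, whose coordinates could not be tied to GRCm38, Cdh5 lies on chromosome 8 from base 104828257 to 104871143.

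The tight junction genes lay closer together. Cldn5, the main claudin of brain vessels, was at 32.2, 16.8 and 23.4 CPM in saline and 22.0, 16.5 and 23.4 CPM in PLEA. Its groups overlapped, and the log2 fold change was -0.23 (95% interval -0.78 to 0.33), or 0.048 without saline replicate 1. Occludin (Ocln), another membrane protein of the tight junction, was at 10.4, 8.61 and 8.99 CPM in saline and 8.61, 8.16 and 10.1 CPM in PLEA, a log2 fold change of -0.06 (95% interval -0.48 to 0.36). Tjp1, which encodes the scaffold ZO-1 and is used by many other cell types, was at 191, 154 and 131 CPM in saline and 153, 115 and 131 CPM in PLEA. Its log2 fold change was -0.26 (95% interval -0.64 to 0.13), or -0.091 without saline replicate 1, and the ranges overlapped.

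Pecam1, an adhesion protein of endothelial contacts through which leukocytes pass, was at 42.7, 18.6 and 24.7 CPM in saline and 22.5, 27.1 and 25.7 CPM in PLEA. All 3 PLEA values lay inside the saline range, and the sign of the fold change depended on 1 library: -0.19 (log2) with all libraries and 0.22 without saline replicate 1. Esam, an immunoglobulin-type junction protein, was at 19.7, 11.3 and 12.9 CPM in saline and 14.9, 13.0 and 16.9 CPM in PLEA. Its log2 fold change was 0.03 (95% interval -0.49 to 0.55), and 0.31 without saline replicate 1.

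The 3 endothelial receptor genes all had negative fold changes that did not pass. Tek, which encodes TIE2, the receptor of the angiopoietins, was at 29.7, 16.7 and 16.4 CPM in saline and 17.0, 11.8 and 13.8 CPM in PLEA. PLEA replicate 1 lay just above the lower saline values, so the groups overlapped, and the log2 fold change was -0.56 (SE 0.26, edgeR adjusted p = 0.818), or -0.21 without saline replicate 1. Its partner receptor Tie1 had -0.36 (SE 0.26), from values of 9.65 to 18.0 CPM in saline and 8.22 to 11.4 CPM in PLEA, and was at -0.048 without saline replicate 1. Endoglin (Eng), a TGF-beta co-receptor, was at 35.7, 22.5 and 26.0 CPM in saline and 22.7, 13.1 and 22.6 CPM in PLEA. Here PLEA replicate 2 was the library that stood lowest, and the log2 fold change of -0.52 (SE 0.25) was -0.31 without it and -0.30 without saline replicate 1.

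The surface and secreted markers had values of both signs, with a median of -0.18 (log2), or 0.10 without saline replicate 1. Emcn, which encodes the sialomucin endomucin of capillary and venous endothelium, was at 7.80, 4.80 and 5.72 CPM in saline and 3.93, 2.95 and 4.02 CPM in PLEA. Every PLEA value lay below every saline value, with a log2 fold change of -0.75 (SE 0.27, edgeR adjusted p = 0.818), or -0.52 without saline replicate 1. Group means were 6.11 ± 1.54 and 3.63 ± 0.597 CPM (SD, n = 3 each), and the table places Emcn on chromosome 3 from base 137046828 to 137137946. Ly6c1, a membrane-anchored surface protein abundant on brain endothelium, had the opposite sign. It was at 27.0, 17.6 and 19.9 CPM in saline and 22.9, 36.0 and 28.6 CPM in PLEA. The log2 fold change was 0.44 (SE 0.21, edgeR adjusted p = 0.818). Saline replicate 1 overlapped the PLEA range, and without it the groups were apart with a log2 fold change of 0.65.

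The monocyte gene Ly6c2 is a near copy of Ly6c1, with 97.6% identity over 822 bases, so reads could be split between them. Ly6c2 had 0 to 4 counts per library, against 304 to 635 for Ly6c1. Egfl7, a secreted endothelial protein whose gene also holds the microRNA miR-126, was at 16.6, 10.1 and 10.3 CPM in saline and 13.6, 9.07 and 10.0 CPM in PLEA. Its ranges overlapped, and the log2 fold change was -0.18 with all libraries and 0.10 without saline replicate 1.

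Among transcription factors, Sox18, Sox17 and Erg all had negative values, around a median of -0.48 (log2). Sox18, a SOX factor of vessel and lymphatic development, was at 5.46, 5.03 and 4.31 CPM in saline and 2.83, 2.95 and 3.07 CPM in PLEA. These are 93, 87 and 70 counts against 49, 52 and 55 counts, and means of 4.93 ± 0.58 and 2.95 ± 0.121 CPM (SD, n = 3 each). The gap between the groups was wider than the spread within either, and the log2 fold change was -0.74 (SE 0.23, edgeR adjusted p = 0.818). Leaving out any 1 library gave values from -0.84 to -0.65, and the value nearest 0 was the one without saline replicate 1. The table places Sox18 on chromosome 2 from base 181311629 to 181313433.

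Sox17, the related factor of arterial endothelium, was at 7.69, 5.32 and 5.72 CPM in saline and 4.10, 4.82 and 4.47 CPM in PLEA. The groups did not overlap, but the nearest libraries were close, and the log2 fold change was -0.48 (SE 0.23), or -0.30 without saline replicate 1. Gm37587, on the opposite strand, shares 804 exon bases with Sox17 in GENCODE M21 and had 0 to 4 counts. Erg, the ETS factor that maintains endothelial identity, was at 11.3, 6.53 and 4.86 CPM in saline and 4.85, 4.87 and 6.65 CPM in PLEA. Its log2 fold change of -0.47 (SE 0.33) came with overlapping groups and was -0.055 without saline replicate 1.

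**Figure D2:**
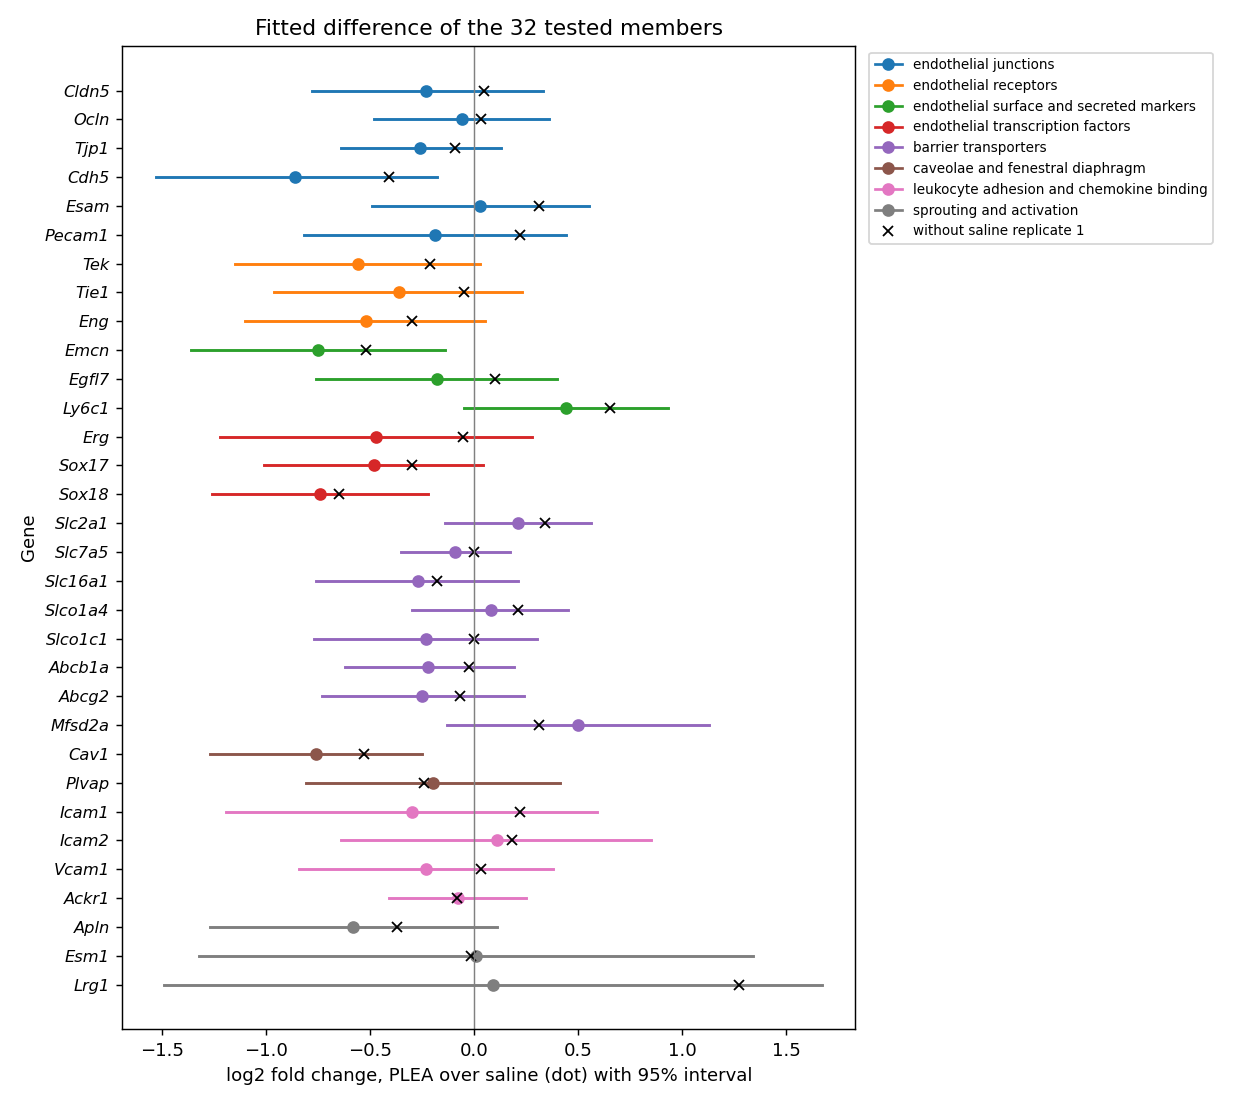
Dots give the fitted log2 fold change (PLEA over saline) of the 32 tested members with its 95% interval, coloured by gene group, and crosses give the value without saline replicate 1. The intervals of Cdh5, Emcn, Sox18 and Cav1 lie below 0 before adjustment for the number of genes, and the crosses lie to the right of most dots.

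For the 8 barrier transporters the median was -0.15 (log2), with 5 negative and 3 positive values and overlapping groups for all 8. Without saline replicate 1 this median was -0.0023, and without PLEA replicate 2 it was -0.07. Slc2a1, which encodes the glucose carrier GLUT1 of endothelium and astrocytes, was the most abundant member per length, at 26.8 CPM per kilobase. It was at 101, 79.5 and 80.9 CPM in saline and 84.4, 115 and 103 CPM in PLEA, with the highest value in PLEA replicate 2. The log2 fold change was 0.21 (95% interval -0.14 to 0.56).

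Mfsd2a, which carries lipids with omega-3 fatty acids into the brain and holds down vesicle transport, had the highest fold change of the members. It was at 9.45, 14.0 and 16.2 CPM in saline and 12.4, 23.2 and 20.5 CPM in PLEA. Saline replicate 1 was its lowest library, unlike most members, and PLEA replicate 1 lay among the saline values. The log2 fold change was 0.50 (SE 0.28, edgeR adjusted p = 0.819), or 0.31 without saline replicate 1 and 0.31 without PLEA replicate 2. The table places Mfsd2a on chromosome 4 from base 122840643 to 122854981.

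The carriers of other nutrients and hormones differed less. Slc7a5, the large neutral amino acid carrier LAT1, had the narrowest interval of the members, -0.35 to 0.17 around a log2 fold change of -0.09, from 62.1 to 74.8 CPM in saline and 62.5 to 65.5 CPM in PLEA, and was at -0.0013 without saline replicate 1. Slc16a1, the lactate and ketone carrier MCT1, lay between 38.2 and 49.6 CPM in saline and between 26.6 and 47.6 CPM in PLEA (log2 fold change -0.27, 95% interval -0.76 to 0.21). PLEA replicate 2 was its lowest library, as for the next gene, and without it the value was -0.087. Slco1c1, a thyroid hormone carrier that astrocytes and choroid plexus also use, ranged from 43.4 to 73.5 CPM in saline and 36.7 to 61.1 CPM in PLEA. The difference of -0.23 (log2) was -0.0033 without saline replicate 1 and -0.062 without PLEA replicate 2. Slco1a4, an organic anion carrier, was at 94.3, 64.5 and 84.8 CPM in saline and 84.9, 75.5 and 96.8 CPM in PLEA, with a log2 fold change of 0.08 (95% interval -0.30 to 0.45).

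The efflux pump genes were near each other in size of difference. Abcb1a, which encodes P-glycoprotein, ranged from 37.1 to 56.7 CPM in saline and 33.9 to 43.8 CPM in PLEA (log2 fold change -0.22, 95% interval -0.62 to 0.19). Abcg2, the breast cancer resistance protein pump, ranged from 18.9 to 27.6 CPM in saline and 14.6 to 23.2 CPM in PLEA (log2 fold change -0.25, 95% interval -0.73 to 0.24). Without saline replicate 1 the values were -0.023 for Abcb1a and -0.067 for Abcg2.

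Cav1, which encodes caveolin-1, the coat protein of caveolar vesicles, had the smallest p of the members. It was at 21.9, 14.2 and 15.3 CPM in saline and 11.9, 10.2 and 8.27 CPM in PLEA, or 374, 246 and 248 counts against 206, 180 and 148. Group means were 17.1 ± 4.19 and 10.1 ± 1.82 CPM (SD, n = 3 each). The groups did not overlap, and the log2 fold change was -0.76 (SE 0.22, edgeR adjusted p = 0.818, DESeq2 adjusted p = 0.318). It was -0.53 without saline replicate 1 and -0.91 without PLEA replicate 1. Fibroblasts and mural cells also use Cav1, and the summed markers of these cells were likewise lower in every PLEA library than in any saline library (193 to 234 against 241 to 371 CPM for mural cells, and 119 to 133 against 179 to 242 CPM for fibroblasts and meninges). Of the 10 mural markers tested 9 had negative fold changes, but only 1 had groups apart. Rgs5 was the largest part of the mural sum, and its own groups overlapped. Of the 10 fibroblast and meninges markers 8 had groups apart, all on the lower side, against 5.54% of all tested genes. The part of these cells in the Cav1 difference was not tested. In the deposited table Cav1 lies on chromosome 6 from base 17306334 to 17341451.

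Plvap, which forms the diaphragms of caveolae and fenestrae and is scarce in a mature barrier, was detected in all libraries. It was at 7.57, 10.9 and 5.91 CPM in saline and 5.72, 7.65 and 7.88 CPM in PLEA. The ranges overlapped, and the log2 fold change was -0.20 (95% interval -0.81 to 0.41), or 0.065 without saline replicate 2, its highest library.

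Genes that capture leukocytes were low, apart from Vcam1 and Ackr1. E-selectin (Sele), a rolling receptor induced on activated endothelium, had 12, 2 and 1 counts in saline and 2, 0 and 0 counts in PLEA. P-selectin (Selp), stored in endothelium and platelets, had 37, 2 and 6 counts in saline and 0, 2 and 2 counts in PLEA. Of the saline counts of both genes most came from replicate 1. A count of 0 allows up to 3 counts by counting error only. This is 0.173 CPM for Selp in PLEA replicate 1, and 0.17 and 0.168 CPM for Sele in PLEA replicates 2 and 3. No fold is given for either gene, since 1 library carried most of the counts. The sum of the 7 monocyte and macrophage markers was also highest in that library, at 181 CPM. The sum of the 9 neutrophil and platelet markers was not: it was 6.04, 2.72 and 21.4 CPM in saline and 3.99, 5.16 and 3.75 CPM in PLEA. Of these 9 markers 7 were at 0 in some library. The part of these cells in the counts was not tested.

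Icam1, the inducible ligand of leukocyte integrins, was at 6.04, 2.77 and 2.52 CPM in saline and 3.87, 2.44 and 2.91 CPM in PLEA. Its log2 fold change was -0.30 (95% interval -1.19 to 0.59), and 0.22 without saline replicate 1. The antisense gene Gm47079 shares 511 exon bases with Icam1 and had 17 to 52 counts against 41 to 103 for Icam1, and without a known strand setting their reads cannot be told apart. Icam2, the constitutive relative, was at 1.53, 1.16 and 1.54 CPM in saline and 1.27, 1.87 and 1.40 CPM in PLEA, a log2 fold change of 0.11 (95% interval -0.64 to 0.85).

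Vcam1, the ligand of the integrin VLA-4, which glial and choroid cells can also make, was at 38.3, 23.8 and 24.7 CPM in saline and 33.5, 17.7 and 22.7 CPM in PLEA. The first replicate was the highest in each group, and the ranges overlapped. Its log2 fold change was -0.23 (95% interval -0.84 to 0.38), or 0.034 without saline replicate 1.

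Ackr1, a chemokine-binding receptor of venules, read as one of the most abundant members per length, at 23.4 CPM per kilobase. It was at 33.0, 32.8 and 35.4 CPM in saline and 38.0, 27.7 and 30.1 CPM in PLEA, a log2 fold change of -0.08 (95% interval -0.41 to 0.25). These values are uncertain. On the same strand, Cadm3, a cell adhesion gene, shares 361 exon bases with Ackr1 in GENCODE M21, which is 25.7% of Ackr1's exon bases, and averaged 503 CPM. Cadm3 was at 479, 548 and 558 CPM in saline and 562, 429 and 444 CPM in PLEA. In both genes PLEA replicate 1 was the highest library and PLEA replicate 2 the lowest, and how many Ackr1 reads belong to Cadm3 was not tested.

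**Figure D3:**
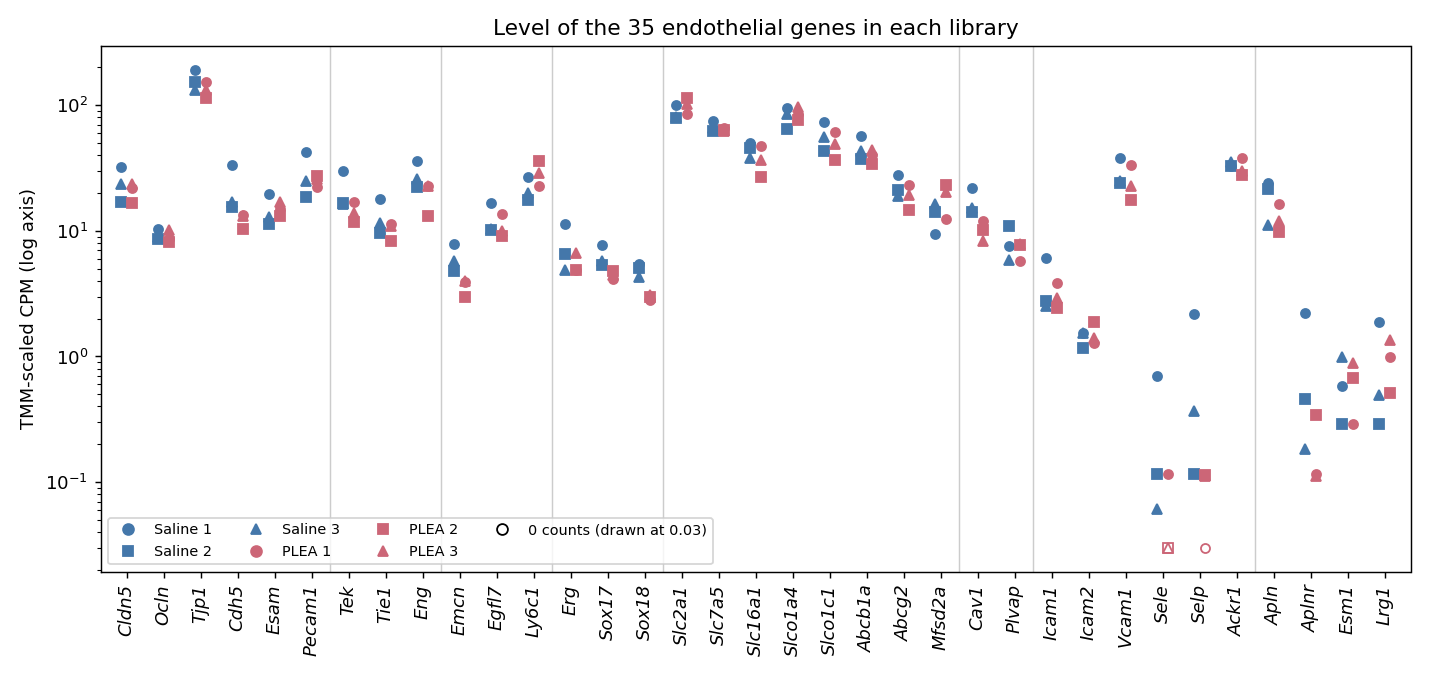
Each point is the TMM-scaled CPM of a gene in 1 library on a log axis, saline in blue and PLEA in red, with a marker shape for each replicate number and open symbols for 0 counts. Sele, Selp, Aplnr, Esm1 and Lrg1 lie at or below about 1 CPM in most libraries, while Tjp1 and the transporters Slc2a1 and Slco1a4 reach about 100 CPM.

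Sprouting and activation genes were also mostly scarce. Apln, the peptide ligand released by sprouting tip cells, was at 23.8, 21.6 and 11.2 CPM in saline and 16.2, 9.75 and 12.0 CPM in PLEA. Saline replicates 1 and 2 stood above all other libraries, but replicate 3 lay among the PLEA values, and the log2 fold change was -0.58 (SE 0.30, edgeR adjusted p = 0.818). Neurons can also express Apln. Its receptor Aplnr had 38, 8 and 3 counts in saline and 2, 6 and 2 counts in PLEA, with most counts again in saline replicate 1.

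Esm1, a proteoglycan of tip cells, had 10, 5 and 16 counts in saline and 5, 12 and 16 counts in PLEA, with a log2 fold change of 0.01 (95% interval -1.32 to 1.34). Lrg1, a secreted modifier of TGF-beta signalling that neutrophils also make, had 32, 5 and 8 counts in saline and 17, 9 and 24 counts in PLEA. The log2 fold change was 0.09 (95% interval -1.49 to 1.67) and was 1.27 without saline replicate 1. The intervals of both genes reach beyond a log2 difference of 1 in either direction.

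The members were also set against 20 other endothelial identity genes in the same library, such as Ptprb, Clec14a and Robo4. Each of the 20 had the same weight, also the scarce Myct1, with 1 count in PLEA replicate 2 and a log2 fold change of -1.92. The mean of those 20 was 4.02 ± 0.40 log2 CPM (SD, n = 3) in saline and 3.60 ± 0.29 log2 CPM (SD, n = 3) in PLEA, and the median gene of the table stood 0.42 higher in PLEA on this relative scale. This shift was 0.19 without saline replicate 1 and 0.25 without PLEA replicate 2. On this scale the 32 members had a median difference of 0.22, below that of all genes. Cdh5 (-0.35) and Emcn (-0.30) had all 3 PLEA libraries below all 3 saline libraries, as did 0.643% of all tested genes. Without saline replicate 1 they were at -0.24 and -0.34, and both were still apart, as were 1.92% of all genes on that side. Ly6c1 (0.86), Slc2a1 (0.62), Slco1a4 (0.51) and Esam (0.48) had them above, as did 16.4% of all tested genes. Mfsd2a was at 0.90 with overlapping groups. The 8 transporters were at 0.11 to 0.90 with a median of 0.28, and the 3 receptors and 3 transcription factors had medians of -0.10 and -0.04.

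**Figure D4:**
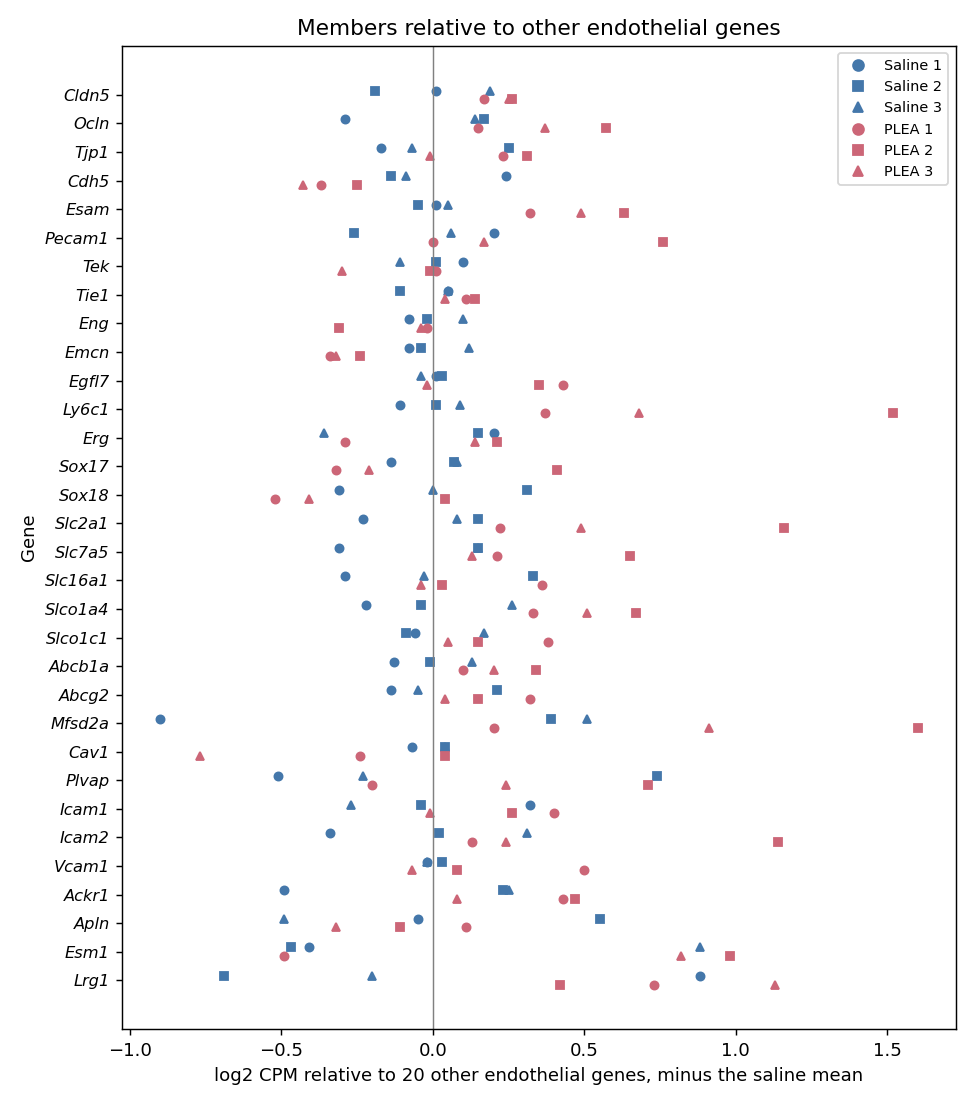
Points give each member's log2 CPM minus the mean log2 CPM of 20 other endothelial genes of the same library, drawn relative to the saline mean, blue for saline and red for PLEA. Most PLEA points lie to the right of 0, as for the median tested gene (0.42), while the PLEA points of Cdh5 and Emcn all lie to the left of the saline points.

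Other genes of the same biology were read from lists beside the members. edgeR called 0 genes of any of the 6 lists at an adjusted p under 0.05. At an unadjusted p under 0.05 it had 3.58% of all tested genes lower and 2.28% higher. These are the shares to set beside the counts of each list. Of all tested genes 51.0% had a negative value. The 20 other endothelial identity genes had a median of -0.38 (log2), with 19 negative values. At an unadjusted p under 0.05, 3 were lower: the VEGF receptors Kdr (-0.75, SE 0.28) and Flt1 (-0.55, SE 0.22), and Myct1 (-1.92, SE 0.79). Myct1 was highest in saline replicate 1, at 2.82 CPM against 0.0567 to 0.862 CPM elsewhere, and its log2 fold change was -1.01 without that library. Without it the median of the 20 genes was -0.135. A list of 20 Wnt signalling and transcription genes had a median of -0.43, or -0.197 without saline replicate 1. Not all of them are particular to endothelium or known to build the barrier. At an unadjusted p under 0.05, 4 of them were lower (Lef1, Foxq1, Adgra2 and Fli1) and 0 higher. The transcription factor Foxq1 was at 2.64, 2.54 and 2.83 CPM in saline and 2.02, 0.793 and 1.34 CPM in PLEA (log2 fold change -0.94, SE 0.37), and Adgra2, the WNT7 co-receptor GPR124, had -0.43 (SE 0.17). Lef1, a Wnt effector, reached 18.5 CPM in saline replicate 2, against 2.38 to 5.69 CPM in the other 5 libraries, and its log2 fold change was -1.69 with that library and -0.71 without it. Axin2, a general readout of Wnt signalling, had a log2 fold change of 0.04.

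A list of 20 other barrier genes, mostly transporters, had a median of -0.19. An unadjusted p under 0.05 was reached by 3 on the lower side (Slc22a8, Itm2a and Alpl) and 0 on the higher. Of these 3 only Slc22a8 is a carrier. Slc22a8, an organic anion carrier, was at 21.3, 25.2 and 23.5 CPM in saline and 14.9, 7.20 and 10.3 CPM in PLEA, which gave a log2 fold change of -1.11 (SE 0.25, edgeR adjusted p = 0.818). Saline replicate 1 was its lowest saline library. The fibroblast and meninges markers moved the same way, with negative fold changes for all 10. They summed to 119 to 133 CPM in PLEA and 179 to 242 CPM in saline. The part of these cells in the Slc22a8 difference was not tested. The 15 other junction genes had a median of -0.14 and 2 lower, Jam2 at -0.50 (SE 0.16) and Cgnl1, a cingulin-like junction protein, at -0.59 (SE 0.18). The 7 other caveolar genes had a median of -0.27 with 1 lower (Pacsin2, -0.30, SE 0.11). Of the 22 other activation and adhesion genes 15 were tested, with a median of -0.19 and 1 lower, the adhesion molecule Mcam at -0.61 (SE 0.17). Without saline replicate 1 the medians were -0.106 (the 20 barrier genes), -0.123 (junction genes), -0.136 (caveolar genes) and 0.0214 (activation and adhesion genes). Itm2a was then at -0.37 and Fli1 at -0.47, against -0.71 and -0.97 with all libraries. Slc22a8 was then at -1.17, Foxq1 at -0.94 and Mcam at -0.59.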

How the data were processed

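The 6 RNA-seq libraries were made with a SMARTer mRNA kit from 1.3 µg of RNA (per the labels' protocols). The authors deposited raw counts per gene, not normalized, beside each gene's length. GRCm38 and mm10 appear in the submitters' processing notes. Aligner, counter and strand setting: not given in the sources used here. Of 52088 nuclear genes shared with GENCODE M21 (GRCm38), 2.85% had the same start and end, and 0 of the 35 members did, so the table's coordinates carry no build.

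Titles gave the groups. edgeR 4.0.16 (R 4.3.3) was run with filterByExpr, TMM and a quasi-likelihood fit on group alone, and p-values were adjusted by Benjamini-Hochberg across the 17584 genes that passed the filter (threshold 0.05). The SE was taken as the log2 fold change over the root of F. The 95% intervals use the test's degrees of freedom and are not adjusted for the number of genes. CPM per kilobase divides CPM by the deposited gene length. Relative levels and group overlap use log2 CPM with a prior count of 2. The alternatives tried were DESeq2 1.42.0, limma 3.58.1 (voom), RLE or upper-quartile factors, no filter, a stricter filter (CPM of 1 or more in 3 libraries), a replicate block, and each library left out. Leaving out saline replicate 1 and PLEA replicate 2 together was chosen after seeing the data. Exon overlaps and near copies (BLASTN, at least 95% identity over 200 bases) were searched in GENCODE M21. The procedure was also run on simulated counts with known changes, and the share of them recovered is not given here.

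The members and lists were chosen with earlier results of these data known. Values in every library are given for members at an unadjusted p under 0.05, without group overlap, highest or with the smallest p in their group, under the filter, or turned by leaving out 1 library. From each other list up to 3 genes with the smallest p could be named (mean log2 CPM of at least 0). Fli1, Ptprb, Clec14a, Robo4, Axin2, Cadm3, Ly6c2 and the antisense genes were named outside this rule, after their values were seen.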

Additional observations from a re-analysis of the deposited data

How the results depend on the processing

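No member passed the threshold of 0.05 under any alternative, where the lowest adjusted p of a member was 0.24 (edgeR without a filter). Of 414 recomputed log2 fold changes of members under single changes of processing, 24 changed sign, 23 of them when 1 library was left out, and none under DESeq2, limma voom, other scaling factors, the stricter filter or the block. Genes called across the table numbered 3 higher and 36 lower with DESeq2 and 7 higher and 31 lower without a filter, against 0 and 0 (the cause was not tested). Without a filter an unadjusted p under 0.05 was reached by 2 members on the higher side (5.71% of 35, against 2.24% of all genes in that fit) and 10 on the lower (28.6% against 3.95%). Whether replicate numbers pair the libraries stayed unsettled. The correlations of deviations were 0.373, 0.173 and -0.0176 for numbers 1 to 3. In all, 3 of 6 libraries correlated best with their own number, among them both libraries of number 1. With the replicate block 1 member (Mfsd2a) had an unadjusted p under 0.05 on the higher side and 6 on the lower, against 0 and 4 without it, and 0 were called. The share of all genes at that level also moved, from 2.28% to 2.70% higher and from 3.58% to 5.07% lower.

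With 1 library left out, edgeR called 0 genes of the table higher each time and 0 to 1 lower. Members with an unadjusted p under 0.05 numbered 0 to 2 on the higher side and 2 to 7 on the lower, where all genes had 0.854% to 4.26% and 1.72% to 4.93%. With 1 library fewer, groups lie apart more often: 0 to 4 members lay higher and 5 to 10 lower without group overlap, against 7.74% to 14.8% and 8.09% to 13.7% of all genes. The 2 members lower without saline replicate 1, and also without PLEA replicate 2, were Cav1 and Sox18 (6.25% of members, against 3.30% and 1.89% of all genes); 7 were lower without saline replicate 2 (21.9% against 4.56%). The 10 lower without overlap were found without PLEA replicate 1 (31.2% of members, against 13.7% of all genes), and the 4 higher (Esam, Ly6c1, Slc2a1 and Lrg1) without saline replicate 1 (12.5% against 10.5%). The transcription factor median ran from -0.72 to -0.30.

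Leaving out 1 library turned the sign of 13 members. Without saline replicate 1 it turned for Cldn5, Ocln, Pecam1, Egfl7, Icam1, Vcam1 and Esm1, and without PLEA replicate 2 for Ocln, Icam2, Ackr1 and Esm1. Without saline replicate 2 it turned for Esam, Slco1a4, Plvap, Icam2, Esm1 and Lrg1, without saline replicate 3 for Esam and Lrg1, and without PLEA replicate 3 for Esam, Slco1a4, Esm1 and Lrg1. The lowest and highest log2 fold changes were -0.44 and 0.048 for Cldn5, -0.15 and 0.035 for Ocln, -0.13 and 0.31 for Esam, -0.43 and 0.22 for Pecam1, -0.39 and 0.10 for Egfl7, -0.069 and 0.21 for Slco1a4, -0.40 and 0.065 for Plvap, -0.53 and 0.22 for Icam1, -0.075 and 0.20 for Icam2, -0.53 and 0.034 for Vcam1, -0.23 and 0.015 for Ackr1, -0.34 and 0.49 for Esm1, and -0.34 and 1.27 for Lrg1. Without a filter Esm1 was at -0.0069.

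With saline replicate 1 and PLEA replicate 2 both left out, 0 genes were called higher and 1 lower, and 2 members (Ly6c1 and Lrg1) had an unadjusted p under 0.05 on the higher side and 0 on the lower, where all genes had 1.99% and 2.64%. Medians were then 0.04 for all members, 0.12 for junctions, -0.10 for receptors, 0.21 for surface markers and 0.10 for transporters. Sox18 was at -0.66, Cav1 at -0.55, Emcn at -0.40 and Cdh5 at -0.31. Signs turned for Cldn5 (0.18), Ocln (0.09), Pecam1 (0.15), Tie1 (0.075), Egfl7 (0.21), Erg (0.014), Slco1c1 (0.16), Abcb1a (0.064), Abcg2 (0.084), Icam1 (0.35), Icam2 (-0.012), Vcam1 (0.21) and Esm1 (-0.089). Depth limits Sele, Selp, Aplnr, Esm1, Lrg1 and Icam2, whose counts were 38 or fewer in every library.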

Other observations

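Mfsd2a and Cav1 are known for opposite roles in vesicle transport across brain endothelium. Per length, the ratio of Mfsd2a to Cav1 CPM was 0.659, 1.51 and 1.63 in the saline libraries and 1.59, 3.49 and 3.80 in the PLEA libraries, in the order of their replicates. PLEA replicate 1 lay between saline replicates 2 and 3, so the groups overlapped. The pair was chosen after the values were seen, and no test was run.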
